A study of Mus musculus with 4 samples.

Results

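RNA of 10 genes for neural RNA-binding proteins was read in sorted adult mouse neural stem cells. The genes were the Musashi pair Msi1 and Msi2, Quaking (Qk), the polypyrimidine tract binding proteins Ptbp1 and Ptbp2, the Elavl (Hu) family Elavl1 to Elavl4, and Rbfox2. They were chosen by name and are 10 of 32564 genes with a transcript in the files. The 4 libraries form 1 group. Per the sample labels they are activated EGFR+ neural stem cells, positive for Prom1, EGFR and GFAP, sorted by flow cytometry from gfap:GFP transgenic mice 3 months old on a mixed CD1 and C57BL/6 background, with no treatment. The design text of the series instead speaks of quiescent cells collected after aCSF or antagomers against miR204 were injected into the ventricle. The sample labels carry neither agent, so no groups were compared. If that text applied, the spread between libraries could also hold a treatment difference. Whether each library is a different animal is not labelled, and SDs and p-values here cover the spread between these samples, which may be technical.

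RNA-binding proteins of this set decide which exons a cell keeps, how long an mRNA lasts and whether it is translated. Msi1 and Msi2 are translational regulators of neural stem and progenitor cells. Qk is a STAR-domain protein of glia that controls splicing, export and stability of myelin and astrocyte mRNAs. Ptbp1 is the splicing repressor of progenitors and non-neuronal cells, and its relative Ptbp2 replaces it as neurons differentiate. Elavl2, Elavl3 and Elavl4 bind AU-rich sequences in neurons, Elavl1 (HuR) does so in nearly all cells, and Rbfox2 is a broadly expressed splicing factor that binds GCAUG. In these families splicing of the factor's own mRNA is part of its control. In Ptbp1 and Ptbp2, loss of a short exon shifts the reading frame and sends the mRNA to nonsense-mediated decay, a pathway that destroys mRNAs with a premature stop.

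The coding stretches that tell the main forms apart are shown first, 5′ to 3′, read from the GENCODE M21 transcript sequences of GRCm38. The first set is the short exon of Ptbp1 (chr10:79862014-79862047, + strand) and of Ptbp2 (chr3:119724612-119724645, - strand). In both genes it is 34 bases long, not a multiple of 3, and lies in the coding region. Capitals mark the exon in the forms that keep it, with 20 bases of each neighbouring exon, and the stop codon in the forms that skip it.
Ptbp1-202, exon kept: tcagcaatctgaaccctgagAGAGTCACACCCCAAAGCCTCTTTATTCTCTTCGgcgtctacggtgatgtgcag
Ptbp1-201, exon skipped: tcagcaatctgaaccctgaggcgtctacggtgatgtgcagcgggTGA
Ptbp2-201, exon kept: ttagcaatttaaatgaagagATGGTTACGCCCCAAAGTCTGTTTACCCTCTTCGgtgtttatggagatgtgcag
Ptbp2-208, exon skipped: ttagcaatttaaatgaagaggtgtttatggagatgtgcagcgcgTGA
The 2 exons are identical at 26 of 34 positions (76.5%). When the exon is skipped, a stop codon follows 24 bases after the new junction in both genes. The open frame has 353 codons in Ptbp1-201 and 489 in Ptbp1-202, and 356 in Ptbp2-208 and 532 in Ptbp2-201. An annotated intron of Ptbp1-202, but none of Ptbp1-201, also spans a 30-base exon (chromosome 10, 79858952 to 79858981). The difference between the 2 Ptbp1 lengths may therefore not be due to the 34-base exon alone.

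The second set is the coding tail of Qk after its last shared exon junction (chromosome 17, - strand), which decides which Quaking protein is made. Capitals mark the stop codon.
Qk-201, 325 codons: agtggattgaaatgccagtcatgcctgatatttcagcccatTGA
Qk-202, 319 codons: gtatggctttcccaacgaaaggcTAA
Qk-204, 341 codons: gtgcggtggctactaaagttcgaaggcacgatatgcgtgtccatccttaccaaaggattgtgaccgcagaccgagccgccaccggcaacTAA
These lengths are those of the proteins known as QKI-7, QKI-6 and QKI-5, of which QKI-5 is the nuclear form. The index against which the reads were quantified held 2 of the 6 Qk transcripts of this annotation, Qk-201 and Qk-202, both in other versions. Qk-204 was not in it, so reads of the QKI-5 form could be counted only where they match those 2 transcripts. The third set is 1 stretch of Msi2 (chr11:88348939-88348992, - strand). Its capitals are 54 bases that are coding in Msi2-201 and intronic in Msi2-203, the leading form.
Msi2-201: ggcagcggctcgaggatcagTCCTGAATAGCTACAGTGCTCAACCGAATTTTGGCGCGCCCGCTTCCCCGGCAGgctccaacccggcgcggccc

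All 10 genes stood above 1 TPM. TPM is a transcript's share of all transcripts in its library, scaled to a fixed total and corrected for transcript length, so levels of different genes can be set beside each other. Each gene's mean log2(TPM + 1) was tested against the value that 1 TPM gives (limma, Benjamini-Hochberg adjusted over 19914 genes). Of all genes tested, 62.8% were above that level and 23.2% below it, so the count of 10 of 10 has a high background. The largest adjusted p among the 10 was 0.00058, for Rbfox2. With 5 TPM as the level, 8 of the 10 passed, against a background of 49.7%, and Elavl3 (adjusted p = 0.0998) and Rbfox2 (adjusted p = 0.89) did not.

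**Figure D1:**
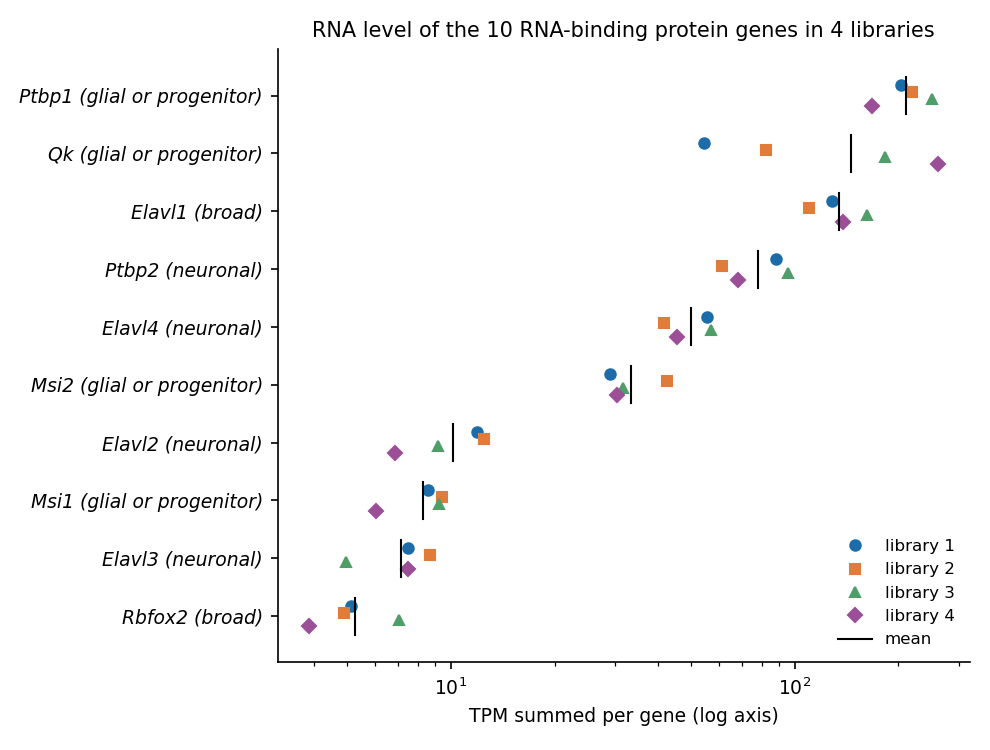
TPM summed per gene on a log axis for the 10 genes, ordered by mean; each symbol is 1 of 4 libraries and the bar is their mean. Ptbp1 is highest at a mean of 210 TPM and Rbfox2 lowest at 5.24 TPM, and Qk is spread from 54.4 to 261 TPM.

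The genes fell into a high and a low set. Ptbp1, Qk, Elavl1, Ptbp2, Elavl4 and Msi2 averaged between 33.4 and 209.8 TPM, and Elavl2, Msi1, Elavl3 and Rbfox2 between 5.24 and 10.1 TPM. The lowest Msi2 library (29.0 TPM) was above the highest Elavl2 library (12.5 TPM). Within the high set, Elavl1 lay above Ptbp2 and Ptbp2 above Elavl4 in 4 of 4 libraries with no overlap of their ranges. Ptbp1 and Qk, Qk and Elavl1, and Elavl4 and Msi2 overlapped, as did all neighbours within the low set. The order inside the low set is therefore not set by these libraries.

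Ptbp1 (chromosome 10, 79854427 to 79864771) had the highest mean of the 10 genes, although Qk was above it in library 4. It stood at 203.7, 218, 249.9 and 167 TPM in libraries 1 to 4, a mean of 209.8 ± 34.3 TPM (SD, n = 4), resting on 4950 to 6400 estimated counts. No library stood apart. Ptbp2 (chromosome 3, 119718742 to 119784466), the neuronal relative, stood at 88.0, 61.6, 95.5 and 68.2 TPM, a mean of 78.3 ± 16.0 TPM. Ptbp1 was thus 2.67-fold higher than Ptbp2 on the log2(TPM + 1) scale, in 4 of 4 libraries and with no overlap. All fold values of gene pairs given below are on this scale. They are smaller than ratios of TPM itself, most of all where a gene is low. An exact two-sided permutation test that flips signs of the libraries' log ratios gave p = 0.13, the smallest it can give with 4 libraries. The third gene of the family, Ptbp3, was at 12.98 ± 5.20 TPM, 15.8-fold below Ptbp1 in 4 of 4 libraries.

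Musashi RNA was mostly Msi2. Msi2 (chromosome 11, 88339382 to 88718513) stood at 29.0, 42.5, 31.6 and 30.4 TPM, with library 2 highest. Msi1 (chromosome 5, 115429599 to 115455698) stood at 8.55, 9.39, 9.23 and 6.04 TPM, with library 4 lowest. Msi2 was 3.70-fold higher than Msi1, in 4 of 4 libraries. Msi1 rested on only 138 to 280 estimated counts per library, which limits what can be said of its forms.

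Qk (chromosome 17, 10202601 to 10319854) varied far more than the other 9 genes. It stood at 54.4, 82.5, 182 and 261 TPM in libraries 1 to 4, a mean of 145 ± 94.8 TPM and a 4.802-fold range, resting on 5149 to 24638 estimated counts. The other 9 genes ranged between 1.37-fold (Elavl4) and 1.83-fold (Rbfox2) from lowest to highest library. The SD of log2(TPM + 1) was 1.03 for Qk, higher than in 98.7% of the 11292 genes of at least 5 TPM, whose median SD was 0.27. For the other 9 it lay between 0.22 and 0.36. Both Qk transcripts of the index took part: Qk-201 stood at 41.4, 60.4, 135 and 179 TPM, and Qk-202 at 12.996, 22.1, 47.2 and 81.7 TPM. Libraries 3 and 4 were high and libraries 1 and 2 low in each.

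Qk is also an oligodendrocyte gene, and markers of that cell type were present in all libraries. The 8 oligodendrocyte markers listed were all above 1 TPM and summed to 2505, 3595, 3255 and 4296 TPM in libraries 1 to 4. Beside this and each later count of markers above 1 TPM stands the 62.8% of all genes tested. Mog, a component of mature myelin, stood at 9.73, 76.4, 71.7 and 85.3 TPM, and the myelin adhesion gene Mag at 12.8, 174, 123 and 180.2 TPM. Library 1, the lowest in Qk, was also the lowest in 6 of the 8 markers. The exceptions were Mbp, at 1774, 1608, 1471 and 1969 TPM, and Mobp, at 341, 335, 312 and 405 TPM, both lowest in library 3. Library 1 was likewise the lowest in 5 of 6 microglia and 5 of 5 ependymal markers, so this was not particular to oligodendrocyte genes. It was the lowest in 1 of 9 neuroblast markers, 0 of 9 mature neuron markers and 13 of 41 other neural RNA-binding genes listed. The share over all genes was not computed. In libraries 2, 3 and 4 Mog, 1 of 8 markers, lay between 71.7 and 85.3 TPM and Qk between 82.5 and 261 TPM. The microglia gene Csf1r rose from library 1 to library 4 as Qk did, at 12.5, 45.1, 69.6 and 80.4 TPM. The microglia list as a sum did not, being highest in library 3. Both genes were picked after their values were seen. Microglia markers (6 of 6 above 1 TPM) summed to 91.6, 218, 305 and 264 TPM, ependymal markers (5 of 5) to 512, 1036, 697 and 864 TPM, and oligodendrocyte precursor markers (4 of 5) to between 52.6 and 100.02 TPM. The part of these cell types in the Qk levels was not tested. In bulk RNA more cells of a type and more RNA per cell cannot be told apart.

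**Figure D2:**
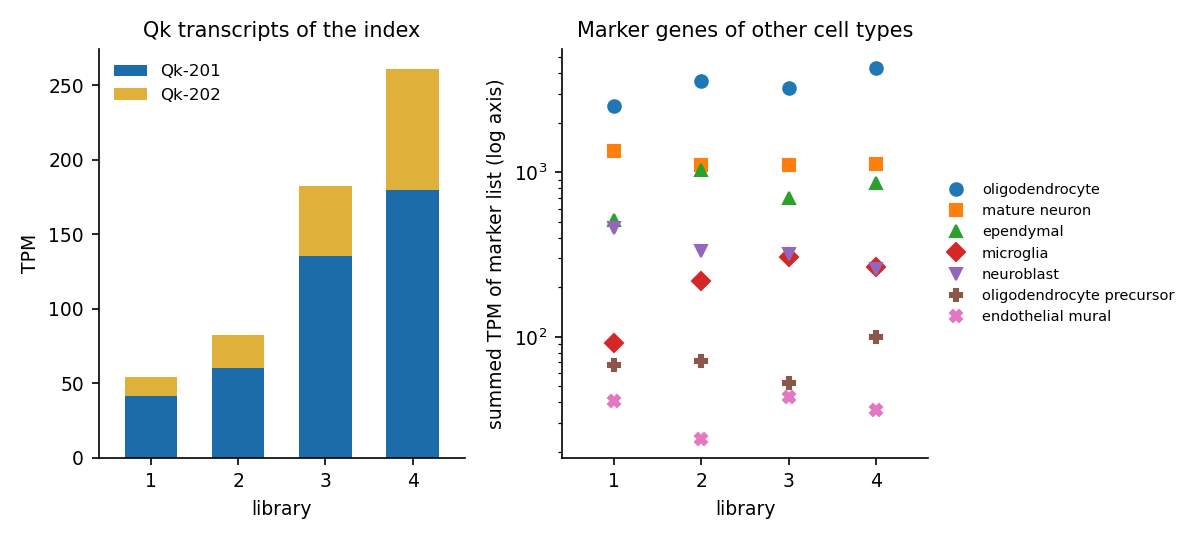
Left, TPM of the 2 Qk transcripts of the index stacked per library (linear axis from 0); right, summed TPM of 7 marker lists per library (log axis). Qk is lowest in library 1 at 54.4 TPM and highest in library 4 at 261 TPM. Summed oligodendrocyte markers are lowest in library 1 at 2505 TPM and highest in library 4 at 4296 TPM.

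Neuronal Elavl genes were detected in every library, and Elavl4 was the main one. Elavl4 (HuD; chromosome 4, 110203722 to 110351909) stood at 55.7, 41.5, 56.9 and 45.5 TPM, a mean of 49.9 ± 7.57 TPM. Elavl2 (HuB; chromosome 4, 91250763 to 91400785) stood at 11.9, 12.5, 9.17 and 6.89 TPM, with library 4 lowest. Elavl3 (HuC; chromosome 9, 22015005 to 22052023) stood at 7.48, 8.70, 4.94 and 7.52 TPM, with library 3 lowest. Elavl4 was 4.64-fold higher than Elavl2 and 6.28-fold higher than Elavl3, each in 4 of 4 libraries. These sizes depended on the measure. The log2 ratio of Elavl4 over Elavl2 was 2.21, but 1.29 with protein-coding forms alone and 1.26 without length correction. For Elavl3 over Elavl4 it was -2.65, -1.60 and -1.04 in the same order. Elavl3 was below Elavl2 in 3 of 4 libraries (log2 ratio -0.44 ± 0.39, exact p = 0.25), and this direction was opposite without length correction (0.22) and with the most abundant transcript alone (1.16).

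Markers of neurons were present beside them. Of 9 markers of mature neurons 8 were above 1 TPM, beside 62.8% of all genes tested, and the list summed to between 1103 and 1348 TPM. The synaptic gene Snap25 stood between 108 and 175 TPM. The 9 neuroblast markers were all above 1 TPM and summed to 457, 331, 319 and 259 TPM, with the young neuron gene Dcx between 14.4 and 23.4 TPM. The part of neurons or neuroblasts in the levels of Ptbp2 and of the neuronal Elavl genes was not tested. Of 5 endothelial and mural markers, Pecam1 (3.87 ± 0.37 TPM) and Pdgfrb (31.8 ± 8.59 TPM) were above 1 TPM, and Cldn5 (0.12 TPM) and Rgs5 (0.20 TPM) were below it. The last one, Cdh5, had 0 counts in every library, which at 3 counts allows up to 0.136 TPM in the shallowest library. All 11 neural stem markers were above 1 TPM, again beside 62.8% of all genes tested.

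Elavl1 (chromosome 8, 4285382 to 4325413), the member of its family found in most tissues, stood at 127.7, 109.98, 162 and 138 TPM, a mean of 134.6 ± 21.8 TPM. It was 1.98-fold higher than Elavl2, Elavl3 and Elavl4 summed, in 4 of 4 libraries. Rbfox2 (chromosome 15, 77078990 to 77307004) was the lowest of the 10, at 5.13, 4.89, 7.07 and 3.87 TPM. Its neuronal relatives Rbfox3, the gene of the neuron marker NeuN, and Rbfox1 stood at 58.97 ± 8.53 TPM and 52.8 ± 5.17 TPM. Rbfox2 was 9.70-fold below Rbfox3 and 8.73-fold below Rbfox1, each in 4 of 4 libraries. On the log2(TPM + 1) scale these ratios were -3.28 and -3.13, and with 0.1 added in place of 1 they were -3.49 and -3.34. Without length correction they were only -1.48 and -0.99. The leading Rbfox3 and Rbfox1 forms had 1542 and 1191 bases, and the leading Rbfox2 form had 7031. Of Rbfox1 the index held 2 transcripts. The index held 4 of the 15 Rbfox2 transcripts of the annotation, so reads of the other 11 were countable only where they match those 4.

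In all, 10 such ratios within libraries were computed, and 9 of them had the same direction in 4 of 4 libraries. The tenth was Elavl3 over Elavl2. Qk over Msi2, the remaining pair, was 3.59-fold with a range from 0.89 to 3.06 on the log2 scale. Each of the 9 had the smallest exact p, which became 0.14 when adjusted over the 10 pairs, so none could reach 0.05 in a design of 4 libraries.

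The glial or progenitor genes Msi1, Msi2, Qk and Ptbp1 were set beside the neuronal genes Ptbp2, Elavl2, Elavl3 and Elavl4. The median of log2(TPM + 1) over the glial or progenitor genes was higher than that over the neuronal genes by 0.59, 1.33, 1.67 and 1.87 in libraries 1 to 4, a mean of 1.37 ± 0.56 (SD, n = 4). The glial or progenitor median ran from 5.35 to 6.27 and the neuronal median from 4.32 to 4.76. Summed TPM of the glial or progenitor genes was 1.81, 2.84, 2.84 and 3.63 times that of the neuronal genes. Without Qk, an alternative chosen after its spread was seen, the difference was 0.15, 0.86, 0.43 and 0.66, a mean of 0.52 ± 0.31. Msi2 is then the median of the remaining genes in every library, as it would be without Ptbp1. The smaller difference therefore does not show how much of the score Qk carried. The glial or progenitor genes were not the higher ones throughout, since Msi1 was below Elavl2, and Msi2 below Elavl4, in 3 of 4 libraries. With protein-coding forms alone Msi2 (24.3 ± 1.27 TPM) and Elavl4 (23.9 ± 5.66 TPM) were alike. Msi1 (6.72 ± 2.03 TPM) stayed below Elavl2 (9.22 ± 2.54 TPM) in the mean. These are scores over genes picked for their known roles, so no p is given.

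Transcript forms differed in how firmly the libraries set them. Shares are percent of a gene's summed TPM, and kallisto, the authors' quantifier, divides reads that fit several forms by estimate. Short annotated fragments reach high TPM from few reads, so the share of estimated counts is given beside it for the forms named. The leading form held a median of 52.6% over the 10 genes, beside 76.1% over 13487 protein-coding genes of at least 1 TPM and 58.4% over the 7629 of these with 4 or more transcripts in the index. Forms not annotated as protein coding held a median of 22.6%, beside 4.09% and 14.0% in those sets. By estimated counts the members' medians were 66.7% and 11.3%, with no value over all genes to set beside them. The members' medians include Elavl3, whose only transcript in the index fixes its leading share at 100%, and Qk, with 2 transcripts. Neither has 4 or more transcripts, so the members and the narrower set are not alike in this.

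**Figure D3:**
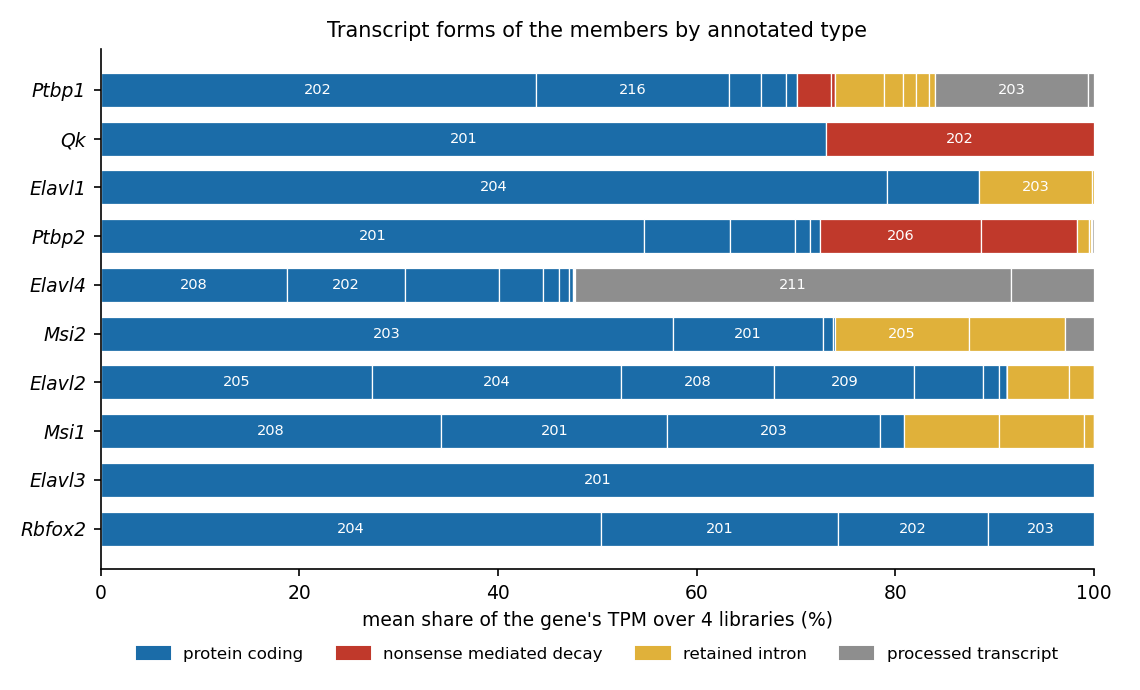
Mean share of each gene's TPM held by each transcript form over 4 libraries (percent), coloured by annotated type; forms of at least 10% carry their number. Elavl1 rests mainly on 1 coding form (79.1%). The leading Qk form has 73.0%, but the index held only 2 of the 6 annotated Qk transcripts. Elavl4 has more than any other on a non-coding form (43.9%).

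Ptbp1 was led by Ptbp1-202, at 88.1, 93.6, 95.95 and 84.8 TPM, a share of 43.8 ± 5.08% and 54.1% of counts. The form Ptbp1-216 followed with 19.5 ± 3.05% (29.1% of counts) and the short non-coding form Ptbp1-203 with 15.4 ± 4.62% of TPM but 3.91% of counts. Ptbp1-202 and Ptbp1-216 differ by, among others, a coding exon of 78 bases (chromosome 10, 79860117 to 79860194), a multiple of 3. Over all forms that can be placed, 68.5, 69.7, 69.5 and 72.2% skipped it, a mean of 69.99 ± 1.57%. By counts it was 66.3 ± 1.96%, so the form without these bases prevailed in every library.

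Skipping of the 34-base exon shown above was rare in Ptbp1 and more frequent in Ptbp2. In Ptbp1, 5.51, 2.94, 5.66 and 6.90% of placed forms skipped it, a mean of 5.25 ± 1.66%. In Ptbp2 the values were 22.95, 25.1, 29.9 and 30.9%, a mean of 27.2 ± 3.79%. Ptbp2 was thus higher by 21.96 ± 3.15 percentage points, in 4 of 4 libraries and with no overlap (exact p = 0.13). The exon was compared between the genes after its values had been seen. In Ptbp2, much of the skipped share lay on Ptbp2-206, a fragment of 576 bases at 16.3 ± 2.43% of TPM and 2.98% of counts. Counting only forms with the complete reading frame, the shares were 4.90 ± 1.22% in Ptbp1 and 13.5 ± 5.79% in Ptbp2, and by estimated counts over all forms 3.15 ± 0.90% and 9.42 ± 2.87%. The difference was then 8.62 and 6.27 percentage points. With complete frames and counts together it was 3.49 ± 2.53 points, so its size depended strongly on the measure, while Ptbp2 was the higher in 4 of 4 libraries by each of them. Skipped forms of Ptbp2 rested on 132 to 313 estimated counts per library. RNA subject to decay is removed, so such shares describe the RNA that is left.

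**Figure D4:**
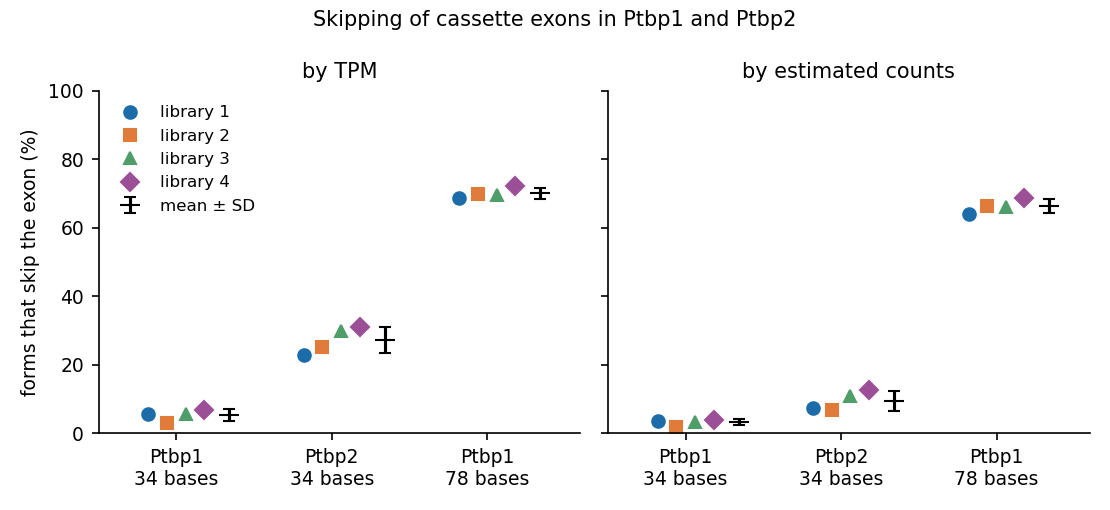
Percent of placed transcript forms that skip the 34-base exon of Ptbp1 and of Ptbp2 and the 78-base exon of Ptbp1, by TPM (left) and by estimated counts (right); symbols are libraries, with mean and SD over 4. Ptbp2 lies above Ptbp1 for the 34-base exon in every library in both panels (27.2 against 5.25% by TPM).

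Ptbp2 was otherwise led by Ptbp2-201, which keeps the exon, at 50.3, 34.6, 50.4 and 36.1 TPM, a share of 54.7 ± 2.23% and 76.7% of counts. In Msi2 the longest form Msi2-203 held 57.6 ± 7.30% of TPM and 82.6% of counts, and Msi2-201, with the 54 added coding bases shown above, held 15.1 ± 4.84% of TPM and 5.86% of counts. The retained-intron form Msi2-205 held 13.4 ± 5.17% (7.41% of counts), at 3.71, 8.81, 3.65 and 2.62 TPM. Library 2, the highest in Msi2, was also the highest in this form. Counting protein-coding forms alone, Msi2 stood at 24.3 ± 1.27 TPM.

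In Qk the split was steady although the level was not. Qk-201 held 76.1, 73.2, 74.1 and 68.7% of Qk TPM, a mean of 73.0 ± 3.12% and 79.8% of counts, and Qk-202 the rest. Qk-202 is annotated as subject to nonsense-mediated decay, but that type belongs to a version of 5832 bases, and the one in the index had 4658. Its type and tail may therefore not be those of the version that was quantified. Qk-201 differed in version as well, with 6718 bases in the index and 6737 in the annotation.

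Elavl1 was led by Elavl1-204, a form of 2317 bases, with 79.1 ± 1.88% of TPM and 74.7% of counts. It has the same coding exons as the form of 5743 bases, Elavl1-201, and differs in the first exon and in the length of the last. Elavl4 was led by Elavl4-211, a form of 869 bases without an annotated reading frame, at 24.6, 19.7, 25.7 and 17.5 TPM. It held 43.9 ± 3.86% of TPM but 21.4% of counts. Protein-coding forms of Elavl4 summed to 23.9 ± 5.66 TPM, below the 49.9 TPM of all forms. By counts the leading form was the full-length Elavl4-202 with 31.2 ± 7.03%.

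The low genes gave unsteady shares. The leading forms Msi1-208 (34.3 ± 13.4%), Elavl2-205 (27.3 ± 8.92%) and Rbfox2-204 (50.4 ± 16.9%) had SDs of up to 16.9 percentage points. By counts Msi1-208 held 58.7%, Rbfox2-204 51.3% and Elavl2-205 only 12.9%. In Elavl2 the leading form by counts was Elavl2-204 with 30.0%, so the lead depended on the measure. Elavl2-204 alone ran from 0.58 to 5.59 TPM between libraries 2 and 1. Elavl3 had 1 transcript in the index, so its leading share was 100% by default.

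Other RNA-binding genes of neural cells were mostly above 1 TPM as well. Of 41 listed, which cover the Celf, Mbnl, Nova, Pcbp, Khdrbs, Fmr1, Igf2bp, Lin28, Pum and Cpeb families and related genes, 34 were above 1 TPM (82.9%), beside the 62.8% of all genes. Another 2 lay below that level and for 5 the test made no call. The median of their mean levels was 25.0 TPM, against 8.34 TPM over all genes tested. The poly(C)-binding genes Pcbp1 (223 ± 25.3 TPM) and Pcbp4 (187 ± 19.0 TPM) were highest, in the range of Ptbp1. They were followed by the CUGBP-family genes Celf4 (134 ± 15.5 TPM) and Celf2 (118 ± 19.98 TPM), by Tia1 (93.8 ± 9.96 TPM, of which 60.0% on non-coding forms) and by Khdrbs1 (84.4 ± 7.62 TPM).

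**Figure D5:**
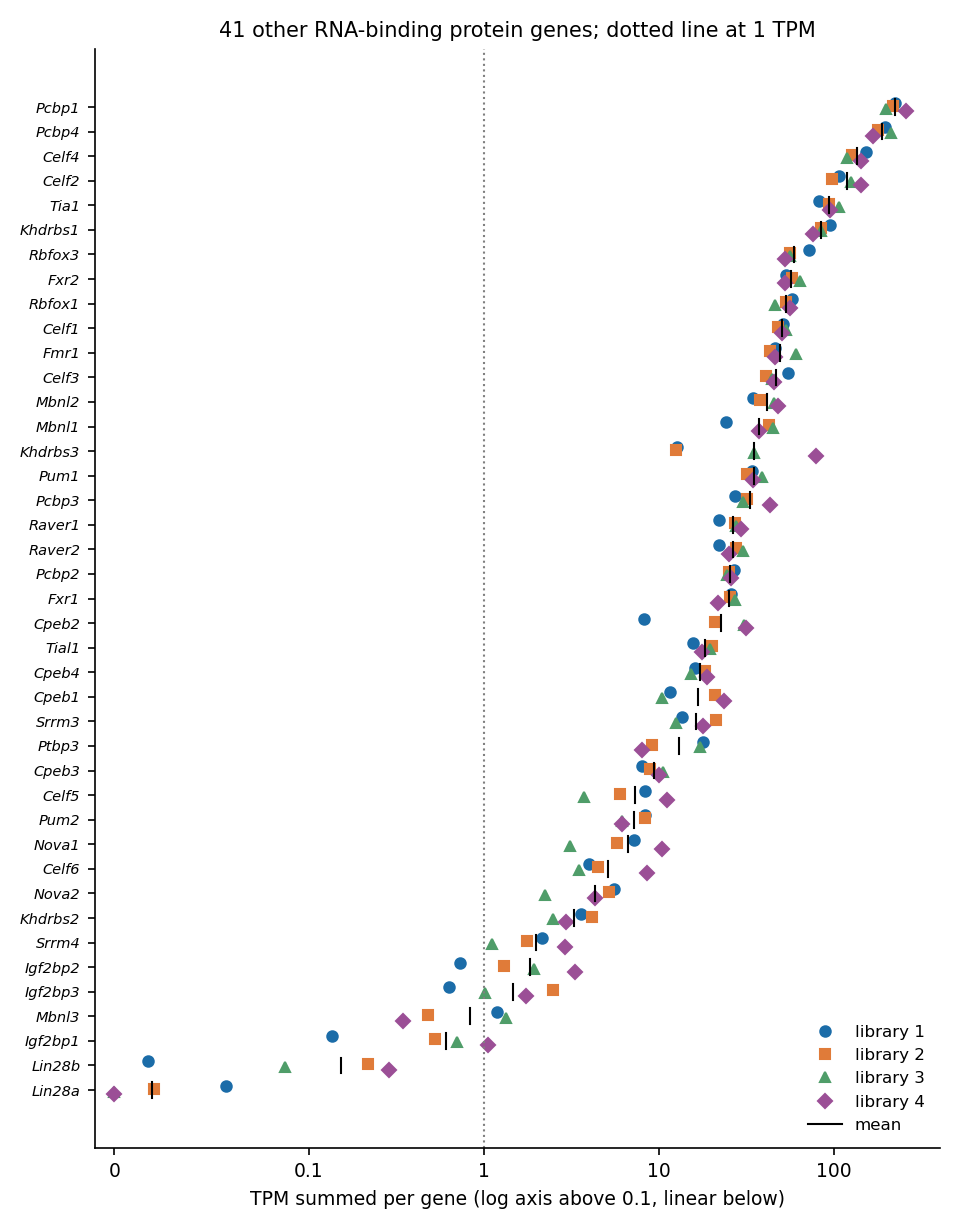
TPM of 41 other RNA-binding protein genes in 4 libraries, ordered by mean (log axis above 0.1 TPM, linear below); symbols are libraries and bars are means. Pcbp1 is highest at a mean of 223 TPM, and Lin28a lowest at 0.019 TPM.

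The 4 lowest of the 41 were Lin28a, Lin28b, Igf2bp1 and Mbnl3. Lin28a, a repressor of let-7 maturation, had a mean of 0.019 TPM and 0 counts in libraries 3 and 4, which at 3 counts allows up to 0.259 TPM. Lin28b stood at 0.15 ± 0.12 TPM, and both were below 1 TPM, as were 23.2% of all genes. Igf2bp1 (0.60 ± 0.38 TPM, 96.6% of it on forms not annotated as coding) and Mbnl3 (0.84 ± 0.50 TPM) passed in neither direction, and the other two Igf2bp genes, Igf2bp2 (1.82 TPM) and Igf2bp3 (1.46 TPM), did not either. Relative to 1 TPM on the log2 scale, Mbnl3 turned from -0.16 to 0.029 when TPM was rescaled to the nuclear protein-coding total. With protein-coding forms alone both were below 1 TPM (limma, adjusted p = 1.9e-06 for Igf2bp1 and 0.031 for Mbnl3), and without library 4 so was Igf2bp1 over all forms (adjusted p = 0.030). Khdrbs3, a relative of Qk in the STAR family, was named after its values were seen. It stood at 12.7, 12.4, 34.9 and 79.0 TPM, low in libraries 1 and 2 and high in libraries 3 and 4 like Qk. The other Khdrbs genes listed did not share this pattern. Khdrbs1 stood at 94.2, 83.4, 84.4 and 75.6 TPM, and Khdrbs2 at 3.57, 4.13, 2.48 and 2.95 TPM. Higher values in libraries 3 and 4 than in 1 and 2 were also seen outside the STAR family. Igf2bp2 stood at 0.73, 1.31, 1.94 and 3.32 TPM, and Celf2 at 107, 97.1, 124 and 142 TPM.

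Genes known as targets of these proteins were read as a list of 9, all above 1 TPM, as were 62.8% of all genes tested. Numb, the Notch inhibitor whose translation Msi1 is known to repress, stood at 20.7 ± 7.97 TPM. The cell cycle inhibitors Cdkn1a and Cdkn1b stood at 49.4 ± 10.1 and 25.2 ± 4.25 TPM. The Quaking targets Mbp and Mag, both genes of myelin, stood at 1706 ± 215 and 122 ± 77.5 TPM, and Mag was lowest in library 1, at 12.8 TPM. Dlg4, the gene of the postsynaptic protein PSD-95 whose splicing Ptbp proteins repress, stood at 21.8 ± 4.49 TPM with 7.66% on forms not annotated as coding. The neuronal Elavl targets Gap43 and Mapt stood at 82.2 ± 14.8 and 149 ± 21.1 TPM. Levels of targets do not show binding or control, which these data do not measure.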

How the data were processed

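Per the labels' protocols, RNA from sorted cells was made into cDNA with a low-input SMART-Seq kit and sequenced in pairs on an Illumina HiSeq. The submitters' processing notes name mm10, kallisto and sleuth; no version or transcript release is given in the sources used here. Deposited files give estimated counts and TPM per transcript. TPM, computed by the authors, is relative to the whole library, and estimated counts divide shared reads by estimate.

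Of 99567 transcripts 98294 matched GENCODE M21 (GRCm38) by identifier, 92612 with the same version. TPM was summed per gene. Of 101 annotated transcripts of the 10 members, 84 were in the index and 71 had a count. The version was the same for 78 of the 84. The others were both Qk forms, Elavl3-201 and all Rbfox2 forms but 1. Their annotated types and lengths may not be those quantified: Rbfox2-201 had 6980 bases in the index and 1720 in the annotation. Depth was 16978938 to 23727664 estimated counts per library. No molecular identifiers are named, so limits cover counting error only. No 2 libraries were alike: at most 0.050% of 12080 genes had identical counts.

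Levels were tested with limma 3.58.1 on log2(TPM + 1) with a mean-variance trend, over 19914 genes with a count. The test was tested on simulated data. A cassette exon counts as skipped where an annotated intron spans it. Ratios within libraries were tested by exact sign-flip permutation. Alternatives used edgeR 4.0.16 (quasi-likelihood, counts rounded to whole numbers) and DESeq2 1.42.0 size factors, in R 4.3.3; the rest was done in Python 3.11.15.

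The members, lists and tests were chosen with earlier results of these data known. Named genes were all members, the 6 highest and 4 lowest of the 41 other RNA-binding genes, genes of the pairs, the target list (1 of its genes is not reported here), and forms of at least 10% of a member's TPM. Outside this rule, Khdrbs2, Khdrbs3, Igf2bp2, Igf2bp3 and the single cell type markers printed were named after their values were seen. No gene was named for a like pattern over the libraries by a correlation, since 4 libraries of 1 group allow none.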

Additional observations from a re-analysis of the deposited data

How the results depend on the processing

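All 10 members stayed above 1 TPM under each of the 12 alternatives except a level of 5 TPM, where 8 passed. They changed the pseudocount to 0.1 or kept genes averaging 5 or more estimated counts, or used rescaling, TMM and DESeq2 factors, edgeR, protein-coding forms only and each library left out. Of the 10 ratios, 9 kept their direction under 8 alternatives each, though not always their size. Elavl3 over Elavl2 turned to 1.16 with the most abundant transcript and to 0.22 without length correction. The glial or progenitor minus neuronal difference was 2.46 with Rbfox2 among the neuronal genes, 2.20 without length correction, 0.52 without Qk, and 1.198 to 1.62 with a library left out. The median leading share was 66.7% by estimated counts, 75.6% among protein-coding forms (9 of 10 members) and 50.5 to 56.1% with a library left out. The median share not annotated as coding was 11.3% by counts and 17.2 to 26.1% with a library left out. The level of Mbnl3 turned to 0.029 after rescaling. The skipping difference was 6.27 by counts, 8.62 with complete frames and 3.49 with both. Causes were not tested where none is given. No paired analysis was possible because the libraries form 1 group. Msi1, with 138 to 280 estimated counts per library, has the fewest of the members.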
